A study of Mus musculus with 4 samples.

Results

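The stromal microRNAs (miRNAs) miR-143, miR-145a, miR-199a, miR-199b and miR-214 were followed through macrophage libraries of leukaemic and normal mice. Of the 847 rows of the deposited table, 7 were taken by name, and all 7 were found: mmu-miR-143-3p, mmu-miR-145a-5p, mmu-miR-145a-3p, mmu-miR-199a-3p, mmu-miR-199a-5p, mmu-miR-199b-5p and mmu-miR-214-3p. A miRNA is cut from a hairpin precursor, whose left and right arms give the 5p and the 3p product, and it represses messenger RNAs that pair with its seed, bases 2 to 8. The miR-143 and miR-145a hairpins are processed from a shared primary transcript that is abundant in smooth muscle, where serum response factor and myocardin drive it, and these miRNAs are also found in fibroblasts. The miR-199a-2 and miR-214 hairpins share the primary transcript Dnm3os, which the mesenchymal factor Twist1 activates. In the bone marrow and the spleen both groups are known mainly from stromal and vessel wall cells.

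The libraries were made from macrophages of C57BL/6J mice, labelled with an age of 6 to 8 weeks. AML spleen and AML BM are macrophages sorted 18 days after mice that had not been irradiated received GFP+ MLL-AF9 leukaemia cells taken from leukaemic mice, and normal spleen and normal BM are macrophages of normal mice. MLL-AF9 is a fusion gene that drives acute myeloid leukaemia (AML), BM is bone marrow, and the labels state a survival of 35 to 40 days in this model. Each combination of tissue and state had 1 library, and the labels do not say how many mice a library holds or which surface markers were sorted. No difference below therefore has a replicate check, and every statement compares libraries. The total count was 180227 in AML spleen against 435492 in normal spleen, and 271209 in AML BM against 206652 in normal BM, with between 505 and 680 rows detected. Levels are counts per 1000000 of the scaled library (CPM), and brackets hold 95% exact intervals, which cover counting error only. A miRNA was called higher or lower when the libraries differed at least 2-fold after scaling, the interval of the ratio excluded 1 and the larger of the counts reached 30.

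Mature sequences are shown for the members that matched the RefSeq table of build GRCm38.p6, which were 3 of 7, because they show which rows can hold the same reads. The seed is in capitals.
mmu-miR-199a-5p: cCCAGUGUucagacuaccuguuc
mmu-miR-199a-3p: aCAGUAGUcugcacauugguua
mmu-miR-214-3p: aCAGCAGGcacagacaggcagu
The miR-199a products are encoded on the plus strand of chromosome 1 (miR-199a-5p at chr1:162217844-162217866 and miR-199a-3p at chr1:162217883-162217904, gene Mir199a-2), and again on the minus strand of chromosome 9 (chr9:21496537-21496559 and chr9:21496498-21496519, gene Mir199a-1). The gene Mir199b, on the plus strand of chromosome 2, gives a 3p product with the same letters as miR-199a-3p (chr2:32318524-32318545). Reads in the miR-199a-3p row can therefore stem from any of these 3 hairpins. In GENCODE M21, Mir199a-2 and Mir214 overlap exons of the long noncoding RNA gene Dnm3os and lie on the strand opposite to an intron of Dnm3. Mir199a-1 and Mir199b lie opposite to introns of Dnm2 and Dnm1, and in RefSeq Mir143 and Mir145a lie inside the span of the noncoding gene Carmn. The 3 seeds shown differ from each other, and none was found in another of the 673 table rows with a sequence in RefSeq. Members without a sequence there were not part of this search. Among them was miR-199b-5p, of the same family as miR-199a-5p, so a seed shared by these rows was not looked for.

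The hairpin of Mir199a-2 (chr1:162217814-162217923, plus strand) is printed with both mature arms in capitals, and that of Mir214 (chr1:162223368-162223477, plus strand) with the 3p arm in capitals, since the counts of these neighbours are set against each other below.
Mir199a-2: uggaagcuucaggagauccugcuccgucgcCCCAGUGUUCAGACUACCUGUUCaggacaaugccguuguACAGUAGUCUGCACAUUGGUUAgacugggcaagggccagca
Mir214: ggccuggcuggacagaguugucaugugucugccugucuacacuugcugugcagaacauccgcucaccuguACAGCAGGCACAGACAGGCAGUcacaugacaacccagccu

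The 7 miRNAs together took a smaller share of the normal spleen library than of the other libraries. They held 1.96% [1.89 to 2.02] of the counts in AML spleen against 0.279% [0.263 to 0.295] in normal spleen, and 1.83% [1.78 to 1.88] in AML BM against 2.64% [2.57 to 2.71] in normal BM. Between 72.5% and 79.8% of these reads were miR-143-3p, the abundant arm of a miRNA known from contractile smooth muscle. Its count was 2616 in AML spleen against 879 in normal spleen, and 3957 in AML BM against 4124 in normal BM. Its level was 13559 CPM in AML spleen against 2242 CPM in normal spleen, and 14112 CPM in AML BM against 19887 CPM in normal BM. It ranked number 21 in AML spleen and AML BM, 20 in normal BM and 53 in normal spleen among the detected rows. Its level in normal spleen lay apart from the others, and the intervals of AML spleen and AML BM overlapped.

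The major arm of the neighbouring hairpin, miR-145a-5p, which represses regulators of the smooth muscle phenotype such as Klf4, had 238 reads in AML spleen against 85 in normal spleen, and 279 in AML BM against 221 in normal BM. Its levels of 1234 CPM in AML spleen, 995 in AML BM and 1066 in normal BM overlapped in their intervals, and only the 217 CPM of normal spleen stood apart. The minor arm miR-145a-3p had 24 reads in AML spleen against 3 in normal spleen, and 38 in AML BM against 48 in normal BM. Its 3 counts in normal spleen correspond to 7.65 CPM [1.58 to 22.4], below the 124 CPM of AML spleen, the 136 CPM of AML BM and the 231 CPM of normal BM. Among those 3 libraries the intervals of neighbouring levels overlapped.

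The most abundant product of the other group was miR-199a-3p, with 448 reads in AML spleen against 136 in normal spleen, and 454 in AML BM against 640 in normal BM. Its level was 2322 CPM in AML spleen against 347 CPM in normal spleen, and 1619 CPM in AML BM against 3086 CPM in normal BM, with no overlap of intervals between any libraries. Its partner arm miR-199a-5p, a regulator of fibroblast activation and of the hypoxia response in heart muscle, had 164 reads in AML spleen against 94 in normal spleen, and 206 in AML BM against 338 in normal BM. AML spleen (850 CPM) and AML BM (735 CPM) overlapped, normal BM was above them at 1630 CPM, and normal spleen was below them at 240 CPM.

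Both remaining rows had few reads. The count of miR-199b-5p was 19 in AML spleen against 5 in normal spleen, and 18 in AML BM against 39 in normal BM. These counts gave 98.5 CPM in AML spleen against 12.8 CPM in normal spleen, and 64.2 CPM in AML BM against 188 CPM in normal BM. The Dnm3os product miR-214-3p, known to target Ezh2, had 20 reads in AML spleen against 11 in normal spleen, and 7 in AML BM against 42 in normal BM. Its level was 104 CPM in AML spleen against 28.1 CPM in normal spleen, and 25.0 CPM in AML BM against 203 CPM in normal BM. The intervals of miR-214-3p overlapped between AML BM and normal spleen, the 2 libraries with its lowest levels. The level was lowest in normal spleen for 6 of the 7 members, against 37.4% of the 246 miRNAs that reached 30 counts in any library. It was highest in normal BM for 6 of the 7, the exception being miR-145a-5p, and for 30.9% of those 246. However, miR-199b-5p and miR-214-3p reached 30 counts in normal BM alone, which favours that order, and of the other 5 members 4 were highest in normal BM.

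**Figure D1:**
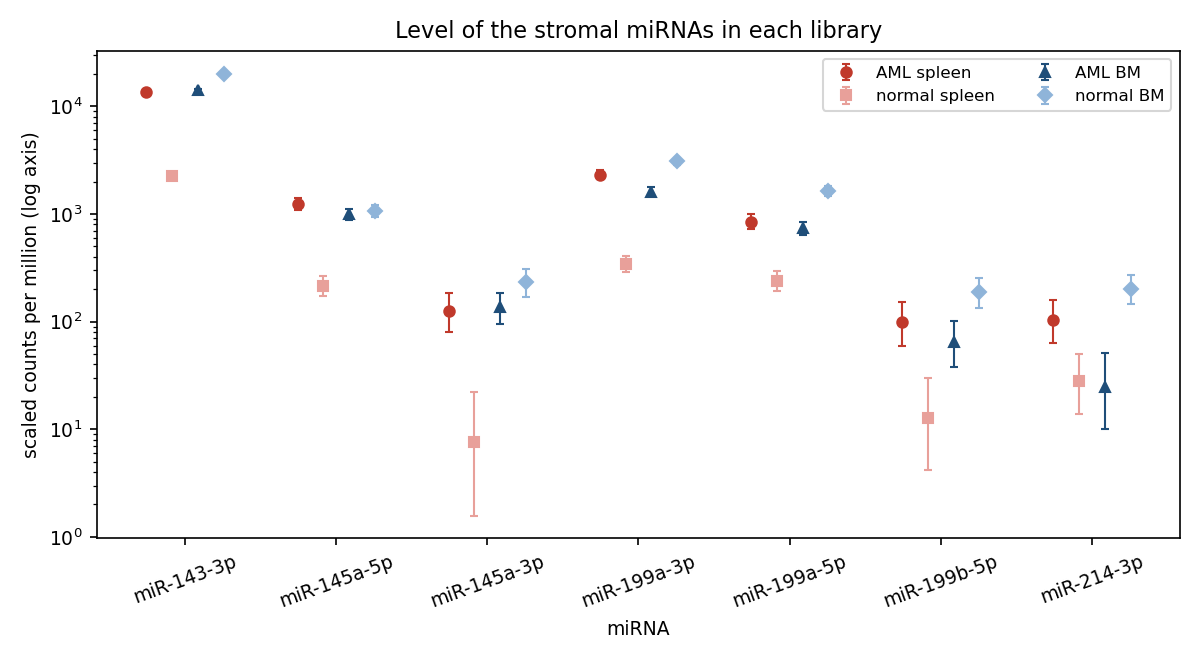
Level of each of the 7 miRNAs (x axis) in scaled counts per 1000000 (y axis, log scale) in the 4 libraries. Points are single libraries and bars are 95% Poisson intervals of the count. The normal spleen squares lie below the other libraries for every miRNA except miR-214-3p, where AML BM is at 25.0 CPM and normal spleen at 28.1 CPM.

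The AML spleen library held more of these miRNAs than the normal spleen library. In bulk libraries such as these, fewer cells of a type and less of a miRNA per cell cannot be told apart. All 4 members with enough reads were higher: miR-143-3p by 6.05-fold, miR-145a-5p by 5.69-fold, miR-199a-3p by 6.69-fold and miR-199a-5p by 3.55-fold. Over all 216 miRNAs compared, 25.0% were called higher and 21.3% lower. The median log2 ratio was 2.55 over the 4 members and -0.25 over all 216. The log2 ratios with their intervals were 2.60 [2.49 to 2.71] for miR-143-3p, 2.51 [2.15 to 2.88] for miR-145a-5p, 2.74 [2.46 to 3.03] for miR-199a-3p and 1.83 [1.45 to 2.21] for miR-199a-5p. The interval of miR-199a-5p lay below those of miR-143-3p and of the opposite arm of its own hairpins, miR-199a-3p.

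The other 3 members had fewer than 30 counts in both spleen libraries and were not called. Their log2 ratios were 4.02 [2.30 to 6.40] for miR-145a-3p, 2.95 [1.48 to 4.73] for miR-199b-5p and 1.89 [0.76 to 3.09] for miR-214-3p. Each of these intervals lay above 0. With a minimum of 10 counts in place of 30 all 7 members were called higher, beside 27.1% higher and 18.8% lower among the 329 miRNAs then compared. Of the added members, miR-145a-3p and miR-199b-5p reached 10 counts in AML spleen alone and could not have been called lower. The balance of calls in this comparison depended on the scaling, with 54 miRNAs higher and 46 lower as reported. DESeq2 size factors gave 51 higher and 68 lower, and total counts gave 64 higher and 36 lower. These scalings moved every log2 ratio of the comparison by -0.24 and by 0.25, and the 4 calls were made under each of them.

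The AML BM library held less of several miR-199 and miR-214 products than the normal BM library, and the products of Carmn (miR-143-3p and both arms of miR-145a) differed by less than 2-fold. Of the 7 members, 3 were lower (miR-199a-5p, miR-199b-5p and miR-214-3p) and 4 were neither. Over all 216 miRNAs compared, 12.0% were called lower and 13.4% higher, or 26 and 29. Since miR-199b-5p and miR-214-3p reached 30 counts in normal BM alone, no higher call was open to them, and their calls are not read against these shares. Of the 5 members with 30 counts in both libraries, 1 was lower and 4 were neither. The median log2 ratio was -0.77 over these 5, -0.93 over all 7 and 0.0029 over all miRNAs. For miR-214-3p the level was 8.11 times lower in AML BM, a log2 ratio of -3.02 [-4.42 to -1.85] with 7 counts in AML BM against 42 in normal BM. For miR-199b-5p the log2 ratio was -1.55 [-2.44 to -0.71] from 18 counts in AML BM against 39 in normal BM, and for miR-199a-5p it was -1.15 [-1.41 to -0.90] from 206 in AML BM against 338 in normal BM. Scaled on totals without the 10 most abundant miRNAs, which moved every log2 ratio of the comparison by 0.20, miR-199a-5p stood at -0.95 and was not called, and 39 miRNAs were higher and 19 lower in all.

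Just short of 2-fold, miR-199a-3p had a log2 ratio of -0.93 [-1.11 to -0.75] between AML BM and normal BM. The ratios of the Carmn products were -0.49 [-0.56 to -0.43] for miR-143-3p, -0.77 [-1.43 to -0.13] for miR-145a-3p and -0.10 [-0.36 to 0.16] for miR-145a-5p. The last of these changed sign, to 0.10, under that scaling. Summed by group, the miR-199 and miR-214 rows had 685 counts in AML BM against 1059 in normal BM, or a log2 value of -1.06 [-1.20 to -0.92]. The Carmn rows had 4274 in AML BM against 4393 in normal BM, for which the log2 ratio was -0.47 [-0.54 to -0.41], so the intervals of the summed groups did not overlap. Each sum rests mainly on 1 row. In the Carmn sum miR-143-3p held 3957 counts in AML BM and 4124 in normal BM. In the other sum miR-199a-3p held 454 in AML BM and 640 in normal BM. Taken alone, miR-145a-3p overlapped the miR-199 and miR-214 sum in its interval. In the spleen the same sums gave 2.43 [2.21 to 2.64] for miR-199 and miR-214 and 2.60 [2.49 to 2.70] for Carmn, with overlapping intervals.

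**Figure D2:**
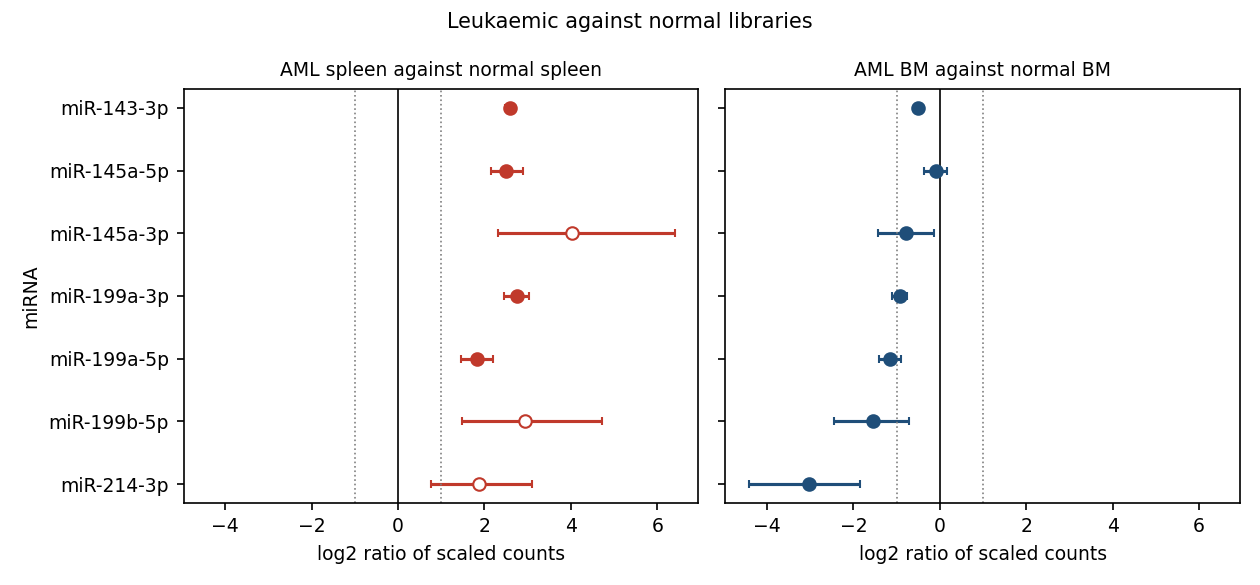
Log2 ratio of scaled counts (x axis) of AML spleen against normal spleen (left) and of AML BM against normal BM (right) for each miRNA (y axis), with 95% exact conditional intervals as bars. Open points had fewer than 30 counts in both libraries, and dotted lines mark 2-fold. Every point of the spleen lies above 0 and every point of the BM below 0, but miR-145a-5p of the BM turns to 0.10 when the 10 most abundant miRNAs are left out of the totals.

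The AML ratio of the spleen was above that of the BM for every member. For the 4 members compared in both tissues the gap was 3.09 [2.96 to 3.22] for miR-143-3p, 2.61 [2.17 to 3.05] for miR-145a-5p, 3.67 [3.35 to 4.0] for miR-199a-3p and 2.98 [2.53 to 3.42] for miR-199a-5p, on the log2 scale. All 4 gaps exceeded 4-fold. Among the 186 miRNAs compared in both tissues, 21.5% had a gap of at least 4-fold with the spleen above, and 15.6% had one with the spleen below. The median gap was 3.03 for the 4 members and -0.38 for the 186. The 3 thinly covered members had gaps of 4.80 [3.07 to 6.52] for miR-145a-3p, 4.50 [2.92 to 6.08] for miR-199b-5p and 4.91 [3.38 to 6.44] for miR-214-3p.

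In normal mice the spleen library had less of every member than the BM library. All 4 members with 30 counts in both libraries (both miR-199a arms, miR-145a-5p and miR-143-3p) were lower, while 35.5% of the 234 miRNAs compared were called lower and 30.8% higher. The other 3 were also called lower, but they reached 30 counts in normal BM alone, so that no higher call was open to them. The median log2 ratio was -2.96 over the 4 members, -3.15 over all 7 and 0.19 over the 234 miRNAs. The smallest difference was that of miR-145a-5p, at -2.30 [-2.68 to -1.93], and the largest that of its partner arm miR-145a-3p, at -4.92 [-7.25 to -3.29] from 3 counts in normal spleen. The abundant miR-143-3p and miR-199a-3p were lower by nearly the same amount, at -3.15 [-3.26 to -3.04] and -3.15 [-3.43 to -2.88]. The others stood at -2.77 for miR-199a-5p, -3.88 for miR-199b-5p and -2.85 for miR-214-3p. This comparison shares the normal spleen library with that of AML spleen against normal spleen, and the normal BM library with that of AML BM against normal BM.

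Between the leukaemic libraries no member was called different. Of the 5 members compared, among which miR-145a-3p reached 30 counts in AML BM alone, none was higher and none lower in AML spleen than in AML BM, against 13.7% higher and 21.3% lower among all 211 miRNAs. The median log2 ratio was 0.21 over the 5 members and -0.12 over all 211. For miR-143-3p the log2 ratio was -0.06 [-0.13 to 0.01], and it changed sign to 0.01 when the 10 most abundant miRNAs were left out of the totals. Within 2-fold, miR-199a-3p stood at 0.52 [0.33 to 0.71], miR-145a-5p at 0.31 [0.05 to 0.56], miR-199a-5p at 0.21 [-0.09 to 0.51] and miR-145a-3p at -0.12 [-0.92 to 0.65]. Too thinly covered to be called, miR-214-3p stood at 20 reads in AML spleen against 7 in AML BM, with a log2 ratio of 2.05 [0.75 to 3.54], and it was called higher with a minimum of 10 counts, which it reached in AML spleen alone, beside 15.0% higher and 20.4% lower among the 319 miRNAs then compared. The row of miR-199b-5p, with 19 counts in AML spleen against 18 in AML BM, stood at 0.62 [-0.39 to 1.63].

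**Figure D3:**
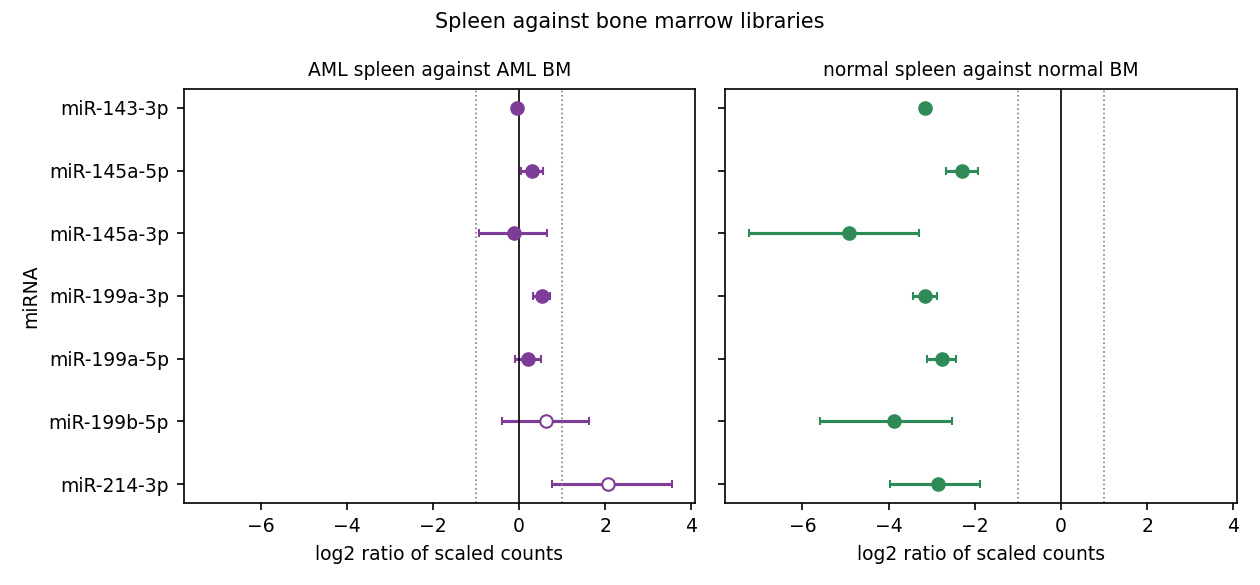
Log2 ratio of scaled counts (x axis) of AML spleen against AML BM (left) and of normal spleen against normal BM (right) for each miRNA (y axis), with 95% exact conditional intervals as bars. Open points had fewer than 30 counts in both libraries, and dotted lines mark 2-fold. The normal pair runs between -2.30 and -4.92, whereas the leukaemic pair lies between -0.12 and 0.62 except for miR-214-3p at 2.05.

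Shares within 1 library need no scaling. Of the reads of miR-199a-5p and miR-199b-5p, miR-199b-5p made up 10.4% [6.37 to 15.7] in AML spleen against 5.05% [1.66 to 11.4] in normal spleen, and 8.04% [4.83 to 12.4] in AML BM against 10.3% [7.46 to 13.9] in normal BM. These intervals all overlapped. The rule by which reads were shared between near-identical family members is not given in the sources used here, so this split is uncertain. Of the reads of both miR-199a arms, the 3p arm held 73.2% [69.5 to 76.7] in AML spleen against 59.1% [52.5 to 65.5] in normal spleen, and 68.8% [65.1 to 72.3] in AML BM against 65.4% [62.4 to 68.4] in normal BM. The interval of AML spleen lay above those of normal spleen and normal BM. The miR-199a-3p row can also hold reads of Mir199b, whose 5p product has its own row. This share is therefore not that of the miR-199a hairpins alone.

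The Dnm3os neighbours stood in a lower proportion in AML BM than in AML spleen and normal BM. Of the reads of miR-214-3p and miR-199a-5p, miR-214-3p made up 10.9% [6.77 to 16.3] in AML spleen against 10.5% [5.35 to 18.0] in normal spleen, and 3.29% [1.33 to 6.65] in AML BM against 11.1% [8.08 to 14.6] in normal BM. The interval of AML BM lay below those of AML spleen and normal BM and overlapped that of normal spleen. It rests on 7 reads of miR-214-3p, and miR-199a-5p can also stem from Mir199a-1.

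Among the Carmn products the share of the minor miR-145a arm ranged widely. The 3p arm made up 9.16% [5.96 to 13.3] of the miR-145a reads in AML spleen against 3.41% [0.709 to 9.64] in normal spleen, and 12.0% [8.62 to 16.1] in AML BM against 17.8% [13.5 to 23.0] in normal BM. The interval of normal BM lay above those of both spleen libraries, and that of AML BM overlapped all the others. Of the reads of miR-143-3p and miR-145a-5p, miR-145a-5p made up 8.34% [7.35 to 9.41] in AML spleen against 8.82% [7.10 to 10.8] in normal spleen, and 6.59% [5.86 to 7.38] in AML BM against 5.09% [4.45 to 5.78] in normal BM. Here normal BM lay below each of the other libraries. All shares come from 1 library per group, so the spread between mice is not known.

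**Figure D4:**
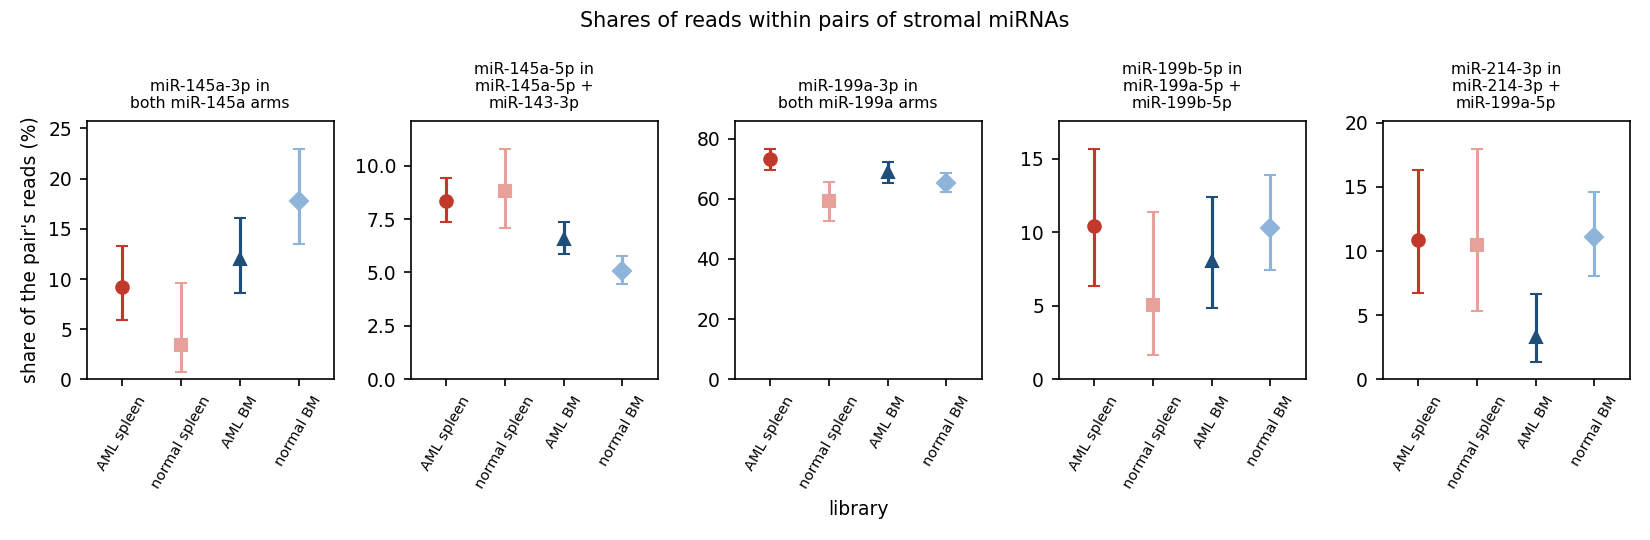
Share of the reads of a pair of rows (y axis, percent) held by the row named first in each panel title, in the 4 libraries (x axis). Bars are 95% Clopper-Pearson intervals, and each panel has its own y axis starting at 0. The share of miR-214-3p is 3.29% in AML BM and between 10.5% and 11.1% in the other libraries.

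Rows with a profile over the 4 libraries like that of the members belonged to several cell types. The measure was the root mean square difference of log2 levels, each centred on its mean over the 4 libraries, among 144 miRNAs that reached 30 counts in each library. Nearest to miR-143-3p were miR-30a-5p (0.10), the endothelial miR-126a-3p (0.10), the epithelial miR-200a-3p (0.11), miR-10b-5p from a Hox cluster (0.12) and miR-192-5p of liver and gut epithelium (0.12). Nearest to miR-199a-3p were miR-10b-5p (0.10), miR-100-5p (0.15), miR-218-5p (0.22), miR-143-3p (0.22) and miR-192-5p (0.26). Seen from miR-143-3p, its cluster neighbour miR-145a-5p came only at place 16, with 0.34, and miR-199a-3p at place 11, with 0.22. Only 4 points enter each of these distances, and they share the same libraries and scaling.

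Summed markers of several other cell types moved with the members, and so did the sum of other miRNAs of mesenchymal cells. The endothelial list, both arms of miR-126a, summed to 3944 CPM in AML spleen against 569 in normal spleen, and 4572 in AML BM against 5946 in normal BM. Between the BM libraries its arms went opposite ways, and neither was called. The level of miR-126a-3p was 4144 CPM in AML BM against 5618 CPM in normal BM, and that of miR-126a-5p was 428 CPM in AML BM against 328 CPM in normal BM. For each endothelial read there were 4.64 member reads in AML spleen against 5.44 in normal spleen, and 3.87 in AML BM against 4.42 in normal BM. The epithelial list (miR-200 family, miR-141, miR-203 and miR-205, all 7 in the table) summed to 8039 CPM in AML spleen against 1987 CPM in normal spleen, and 10189 CPM in AML BM against 14283 CPM in normal BM. Its only member at 0 was miR-141-3p, in AML BM. Most of the sum was miR-200a-3p, with 5784 CPM in AML spleen against 1084 CPM in normal spleen, whereas miR-200c-3p stood the other way at 213 CPM in AML spleen against 411 CPM in normal spleen (log2 ratio -0.95). Of the 5 epithelial miRNAs compared between the spleen libraries 4 were higher in AML spleen and none was lower. The shares over all 216 miRNAs compared there were 25.0% higher and 21.3% lower. The list of skeletal and cardiac muscle summed to 12346 CPM in AML spleen against 2344 CPM in normal spleen, and 10595 CPM in AML BM against 36046 CPM in normal BM. Of its 7 miRNAs 6 were in the table, and of these miR-133a-5p was at 0 in AML spleen. Member reads per muscle read numbered 1.48 in AML spleen against 1.32 in normal spleen, and 1.67 in AML BM against 0.729 in normal BM. The part of these cell types in the levels of the members was not tested, and neither was how specific each list is to its cell type.

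Of 12 other miRNAs listed as abundant in mesenchymal cells, 11 were in the table. In AML spleen against normal spleen 6 of the 9 compared were higher and 1 was lower. Among all 216 miRNAs compared, 25.0% were higher and 21.3% lower. The summed level of the 11 was 41153 CPM in AML spleen against 11732 in normal spleen. Its largest parts in AML spleen were miR-10a-5p at 19918 CPM and miR-10b-5p at 10744 CPM. The higher ones included miR-10a-5p (log2 ratio 1.90), miR-10b-5p (2.70) and miR-99a-5p (1.53), and the lower one was miR-140-5p of cartilage (-1.67). However, miR-140-5p reached the count minimum in normal spleen alone, which left no higher call open to it. In AML BM against normal BM none of 8 was higher and none lower, with a median log2 ratio of -0.48. The shares over all 216 miRNAs were 13.4% higher and 12.0% lower. In normal spleen against normal BM 7 of 9 were lower and none was higher, beside 35.5% lower and 30.8% higher among all 234. Between AML spleen and AML BM none of 8 was called, beside 13.7% higher and 21.3% lower among all 211.

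All 7 miRNAs of the myeloid and pan-haematopoietic list were detected in each library. Detection does not check the labelled cell type. Of the 6 muscle miRNAs in the table, at least 5 were detected in each library too. In normal BM, miR-142a-3p had 31 counts and miR-155-5p 14, beside 437 for miR-146a-5p, 8046 for miR-21a-5p and 4124 for miR-143-3p. The myeloid and pan-haematopoietic list summed to 42807 CPM in AML spleen against 39659 in normal spleen, and 28134 in AML BM against 41697 in normal BM. The largest row was miR-21a-5p, which many cell types express, except in normal spleen, where miR-146a-5p was largest at 17223 CPM. The level of miR-21a-5p was 35644 CPM in AML spleen against 13155 in normal spleen, and 23670 in AML BM against 38799 in normal BM. The single rows differed from the sums. In AML spleen against normal spleen 4 of the 6 compared were lower (both arms of miR-142a, miR-146a-5p and miR-155-5p) and only miR-21a-5p was higher, with a median log2 ratio of -1.50. The shares over all 216 miRNAs of this comparison were 21.3% lower and 25.0% higher. In AML BM against normal BM 3 of the 6 were higher (miR-142a-3p, miR-155-5p and miR-223-5p) and none was lower, with a median of 1.16. In normal spleen against normal BM 4 of the 6 were higher and 2 lower, with a median of 3.04. In both comparisons with normal BM, miR-155-5p was among the higher ones, but its 14 counts there fell short of the count minimum. No lower call was therefore open to miR-155-5p. The myeloid miR-223-3p had few reads, with 4 in AML spleen against 28 in normal spleen, and 12 in AML BM against 10 in normal BM. In sum the lymphocyte list (miR-150-5p and miR-342-3p) ran the other way from the members, with 9314 CPM in AML spleen against 27277 in normal spleen, and 1473 in AML BM against 897 in normal BM. Between the BM libraries neither of its rows was called. There miR-342-3p was on the lower side, with 121 CPM in AML BM against 154 CPM in normal BM. The erythroid list (miR-451a and both arms of miR-144) summed to 1897 CPM in AML spleen against 548 CPM in normal spleen, and 1320 CPM in AML BM against 5382 CPM in normal BM. Nearly all of this was miR-451a, and miR-144-3p stood the other way in the spleen, with 2 reads in AML spleen against 25 in normal spleen.

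**Figure D5:**
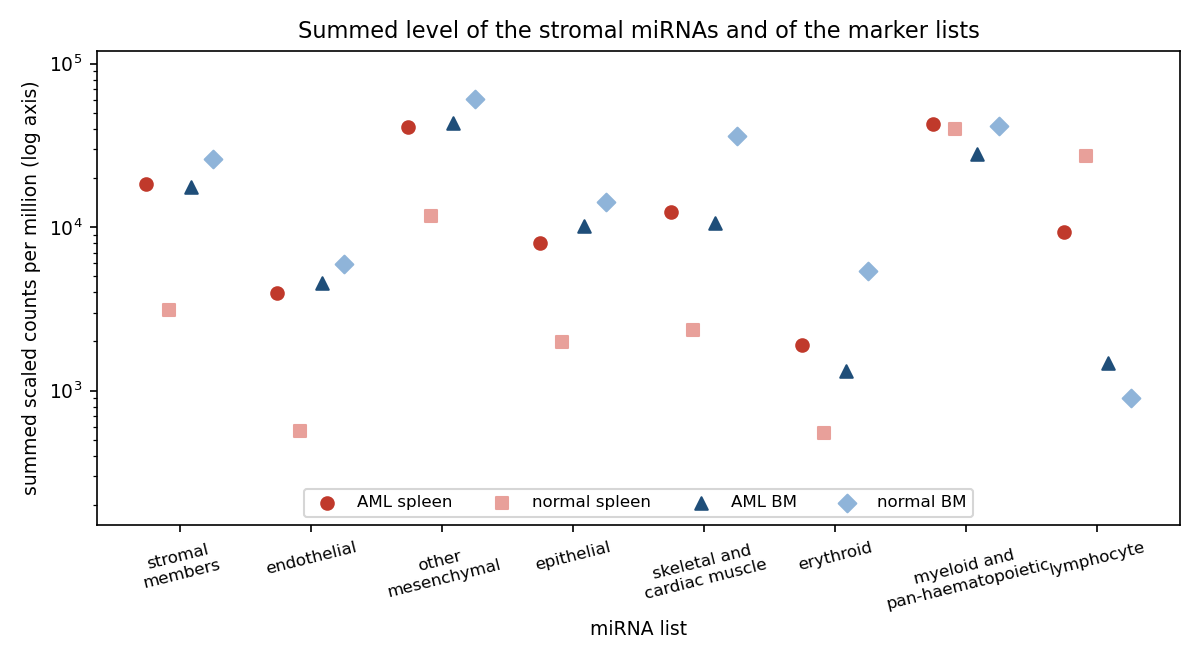
Summed level of the 7 stromal miRNAs and of each marker list (x axis) in scaled counts per 1000000 (y axis, log scale) in the 4 libraries. Points are single libraries. Normal spleen is the lowest point for the stromal members (3094 CPM) and for the endothelial, other mesenchymal, epithelial, muscle and erythroid lists, and the highest for the lymphocyte list (27277 CPM).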

How the data were processed

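The authors deposited read counts per miRNA for 4 small RNA libraries, and TPM values named so per the file headers, which equal the count divided by the library total times 1000000, with no term for length. The TPM columns served this comparison alone. Total RNA came from sorted macrophages, per the labels' protocols. The aligner, the counting tool, the build and the rule for reads that match several miRNAs: not given in the sources used here. Samples were grouped by title. Counts were scaled with TMM factors (edgeR 4.0.16, R 4.3.3) of 1.07 for AML spleen, 0.900 for normal spleen, 1.03 for AML BM and 1.00 for normal BM. Ratios carry 95% exact conditional (Clopper-Pearson) intervals, and gaps a normal interval from the counts plus 0.5. With 1 library per group no test exists. A count of 0 enters as 3 counts, or 15.5 CPM in AML spleen against 7.65 in normal spleen, and 10.7 in AML BM against 14.5 in normal BM. Molecular identifiers are not mentioned in the sources used here. Intervals of the ratios were tested on counts simulated for the BM pair with counting error alone. Variation between mice or library preparations was not simulated. Among rows with at least 100 counts in sum, 7 repeated the counts of another row within 3% or 2 counts, none of them a member. All 7 members are named, and neighbours and list examples followed set rules of likeness and level. The exceptions were miR-140-5p and the single miRNAs of the epithelial, endothelial, muscle, erythroid, lymphocyte and myeloid lists, named after their values were seen. Alternatives were DESeq2 1.42.0 size factors, total counts, totals without the 10 most abundant miRNAs, other count minimums, and rows left out. The members and lists were chosen with earlier results of these data known.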

Additional observations from a re-analysis of the deposited data

Results flagged for a closer look

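For the 4 members compared in both tissues, the AML library lay above the normal library in the spleen and below it in the BM. The remaining members, too thinly covered in the spleen to be called, lay the same way. The gap between the log2 ratios of the tissues was 3.09 for miR-143-3p, 2.61 for miR-145a-5p, 3.67 for miR-199a-3p and 2.98 for miR-199a-5p. With 1 library per group this difference was not tested across mice, and for miR-145a-5p the interval of the BM ratio included 0, and its sign turned on totals without the 10 most abundant miRNAs.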

How the results depend on the processing

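Over 8 alternatives, 174 of 177 member ratios kept their direction and their side of the 2-fold rule. The count minimums cannot change a ratio, and the other alternatives add 1 common shift to all ratios of a comparison. This count therefore does not measure how robust the ratios are. On totals without the 10 most abundant miRNAs, miR-145a-5p in AML BM against normal BM turned to 0.10, miR-143-3p in AML spleen against AML BM turned to 0.013, and miR-199a-5p in AML BM against normal BM lost its call at -0.95, each by the common shift of that scaling. The median log2 ratio of the members in AML spleen against normal spleen was 2.31 with DESeq2 size factors and 2.80 on total counts. In normal spleen against normal BM it was -2.91 with DESeq2 size factors, -3.31 on total counts, -2.97 on the totals reduced by 10 miRNAs and -2.96 with a minimum of 100 counts. In AML BM against normal BM it was -0.73 on those reduced totals and -0.71 with a minimum of 100 counts. For miR-143-3p the gap between tissues was 2.82 with DESeq2 size factors and 3.30 on total counts. Members called higher in AML spleen numbered 7 against normal spleen and 1 (miR-214-3p) against AML BM with a minimum of 10 counts or of 1 count. With a minimum of 100 counts, 1 member was lower in AML BM and 4 in normal spleen against normal BM, since fewer members were compared. With matching rows kept once the members held 2.74% of normal BM. No paired analysis was possible because each group has 1 library. Depth limits miR-145a-3p, miR-199b-5p and miR-214-3p, with 3 to 48 counts a library.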

Other observations

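The rarer arms of these hairpins were close to the limit of the counts. The passenger arm miR-143-5p had 8 reads in AML spleen against 4 in normal spleen, and 21 in AML BM against 3 in normal BM. Its share of the reads of both miR-143 arms was 0.528% [0.327 to 0.806] in AML BM and 0.0727% [0.0150 to 0.212] in normal BM, and its log2 ratio between these libraries was 2.37 [0.63 to 4.76], while that of miR-143-3p was -0.49. This row had fewer than 30 counts and was picked out after its values were seen. The other arm of Mir214, miR-214-5p, had 5 counts in AML spleen and 0 in each of the other libraries, where the floor of 3 counts stands for 7.65 CPM in normal spleen, 10.7 in AML BM, or 14.5 in normal BM.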
